A study of Homo sapiens with 7 samples.

Results

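POU5F1, NANOG, PODXL and NLRP7, which mark pluripotent cells, were followed in H1, an established human embryonic stem cell line. The platform annotation assigned 10 of the 33866 probes of the table to these 4 genes (of 12851 named), and all 10 are described. They are 2 probes for POU5F1, 2 for NANOG, 3 for PODXL and 3 for NLRP7.

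Each of 7 media was measured on 1 Illumina bead array, 2 days after the change of medium, and no medium has a replicate. All 7 cultures grew on matrigel in E8, a defined medium without albumin, and were given 5 μM of the ROCK inhibitor Y27632 for 24 h at passage. One culture had E8 alone, and the others had E8 with 1.6% AlbuMAX (a lipid-rich bovine albumin product), 1% albumin, 1% of a chemically defined lipid concentrate (CDL), a homemade version of that mixture (hCDL), 1 μM lysophosphatidic acid (LPA, an 18:1 phospholipid that signals through its own receptors), or both 1 μM LPA and 1% albumin. The label of hCDL gives 0.1x in one field and 0.01% in another. All values come from 1 cell line, so they describe these 7 cultures and not the spread between cultures or lines.

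POU5F1 (also called OCT4) and NANOG are homeodomain transcription factors of the core pluripotency circuit. POU5F1 binds DNA with SOX2 at composite SOX and POU sites, among them one in the NANOG promoter, and loss of POU5F1 or NANOG takes pluripotent cells towards differentiation. PODXL encodes podocalyxin, a heavily glycosylated sialomucin of the apical membrane that carries epitopes of antibodies used to recognise human pluripotent cells and that is linked to the actin cortex through ezrin. NLRP7 encodes an NLR family protein of oocytes and early embryos, in which maternal mutations cause recurrent hydatidiform mole, and its transcript is also found in human pluripotent cells.

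RefSeq promoter windows on GRCh38.p14, from 250 bases before to 50 bases after the gene start, were matched for 2 of the 4 genes. Both matched windows are shown, and none was matched for POU5F1 or PODXL. NANOG is a known target of POU5F1 and SOX2, and NLRP7 had the widest range of the members. NANOG lies on the plus strand (chr12:7789152-7789451) and NLRP7 on the minus strand (chr19:54947481-54947780). Capitals mark a match of the composite motif, which is the SOX core CATTGT, any 1 base and the octamer core ATGCAAA, searched on both strands.
NANOG: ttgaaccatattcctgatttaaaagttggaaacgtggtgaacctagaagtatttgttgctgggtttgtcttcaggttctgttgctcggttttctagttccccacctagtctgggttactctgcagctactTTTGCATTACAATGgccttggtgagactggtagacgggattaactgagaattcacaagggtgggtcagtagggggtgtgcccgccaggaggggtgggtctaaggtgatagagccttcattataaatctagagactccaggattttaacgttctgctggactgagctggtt
NLRP7: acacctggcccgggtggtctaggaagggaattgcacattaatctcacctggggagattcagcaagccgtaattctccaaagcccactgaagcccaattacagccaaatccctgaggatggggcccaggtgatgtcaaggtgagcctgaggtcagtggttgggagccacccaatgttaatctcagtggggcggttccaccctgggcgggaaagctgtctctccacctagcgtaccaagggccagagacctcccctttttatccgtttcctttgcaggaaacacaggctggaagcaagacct
In the NANOG window the composite motif was on the minus strand, with its first base 120 bases before the gene start, and it was found in 3 of 35116 promoter windows (0.00854%). Its parts were commoner, with the octamer core alone in 4.46% of windows and the SOX core alone in 10.8%. The NLRP7 window held none of these letters, nor the octamer ATGCAAAT (1.77% of windows), the TEAD motif GGAATG (14% of windows) or the CArG box (1.29% of windows). A match describes letters in the window and not binding, which was not measured.

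Values below are log2 intensities after background correction and quantile normalization, and levels of different probes are not set against each other. Detection p-values under 0.01 counted as above background. Between 11722 probes (E8) and 12632 probes (hCDL) per array were above background. Of the 10 member probes 7 met this limit somewhere among the 7 arrays and entered the tests, 6 of them on all 7 arrays and NLRP7 ILMN_1798063 on 2. Each gene had at least 1 probe detected in every medium.

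The other 3 probes were detected on 0 of the 7 arrays. They were ILMN_1665632 of POU5F1, annotated to NM_203289, with log2 values of 4.49 to 4.80, ILMN_2297511 of PODXL, with values of 4.26 to 4.49, and ILMN_1658632 of NLRP7, annotated to NM_206828, with values of 4.42 to 4.74.

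POU5F1 was high in every medium and varied 1.66-fold over the 7 arrays. Its probe ILMN_1705546, annotated to NM_002701, read 10.61 in E8, 10.84 with Albumin, 11.02 with CDL, 10.79 with hCDL, 10.82 with LPA, 10.29 with LPA + Albumin and 10.37 with AlbuMAX. The CDL array was highest, and the LPA + Albumin and AlbuMAX arrays were the lowest, at 80.2% and 84.5% of the E8 intensity. Of the steps between neighbours in this order, only that from AlbuMAX to E8 (0.24) exceeded the standard deviation of a difference in the fit (0.209). This range was wider than that of 64.0% of the probes above background.

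NANOG varied less than any other member, by 1.28-fold and 1.29-fold in its 2 probes. Probe ILMN_1659013 read 10.31 in E8, 10.31 with Albumin, 10.26 with CDL, 10.34 with hCDL, 10.23 with LPA, 9.98 with LPA + Albumin and 10.07 with AlbuMAX. Probe ILMN_3307710 read 10.21, 10.26, 10.14, 10.18, 10.11, 9.91 and 9.90 in the same order of media. In both probes the LPA + Albumin and AlbuMAX arrays were the 2 lowest, at 79.3% to 84.6% of the E8 intensity, and the LPA array came next. The only neighbours further apart than the standard deviation of a difference were AlbuMAX and LPA in ILMN_1659013 (0.15 against 0.143) and LPA + Albumin and LPA in ILMN_3307710 (0.20 against 0.144). The 2 probes correlated with r = 0.942 over the 7 arrays, and both are annotated to NM_024865. RefSeq holds 6 symbols made of POU5F1, P and a number, as pseudogenes are named, 11 such symbols for NANOG, 1 for NLRP7 and 0 for PODXL. Whether the probes take up signal from such copies was not tested.

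PODXL split the media into a lower and a higher set. Probe ILMN_2413158 read 12.99 in E8, 12.82 with Albumin, 12.87 with CDL, 12.84 with hCDL, 13.33 with LPA, 13.57 with LPA + Albumin and 13.46 with AlbuMAX. Probe ILMN_1711311 read 10.16, 9.97, 10.07, 10.04, 10.69, 10.87 and 10.74 in the same order. Both probes ranked the 7 media identically and correlated with r = 0.994, with the 3 media of LPA, AlbuMAX and LPA + Albumin above the other 4. In each probe the only step larger than the standard deviation of a difference was the one from E8 to LPA, of 0.35 against 0.138 and 0.53 against 0.151. Relative to E8, PODXL was 1.27-fold and 1.45-fold higher with LPA, 1.39-fold and 1.495-fold higher with AlbuMAX, and 1.497-fold and 1.64-fold higher with LPA + Albumin.

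NLRP7 had the widest range of the 4 genes. Probe ILMN_1652366, annotated to NM_139176, read 6.09 in E8, 6.24 with Albumin, 6.36 with CDL, 6.52 with hCDL, 6.88 with LPA, 7.97 with LPA + Albumin and 7.75 with AlbuMAX. The LPA + Albumin array was 3.67-fold, the AlbuMAX array 3.17-fold and the LPA array 1.74-fold above E8, and a range this wide was exceeded by few probes (it was wider than that of 98.8%). The steps from hCDL to LPA (0.36) and from LPA to AlbuMAX (0.87) exceeded the standard deviation of a difference (0.314).

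The second detected probe of NLRP7, ILMN_1798063, is annotated to the same transcript and lay near background. It read 4.51 in E8, 4.54 with Albumin, 4.97 with CDL, 4.90 with hCDL, 4.85 with LPA, 5.65 with LPA + Albumin and 5.35 with AlbuMAX, and was above background on 2 arrays, AlbuMAX and LPA + Albumin. With the dim side set to the lowest signal above background, LPA + Albumin was at least 1.22-fold above E8 and at least 1.39-fold above Albumin. The values on the other 5 arrays have no order. The size of the NLRP7 differences depended on the background correction: without it the difference of LPA + Albumin from E8 in ILMN_1652366 was 1.11 on the log2 scale in place of 1.88.

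**Figure D1:**
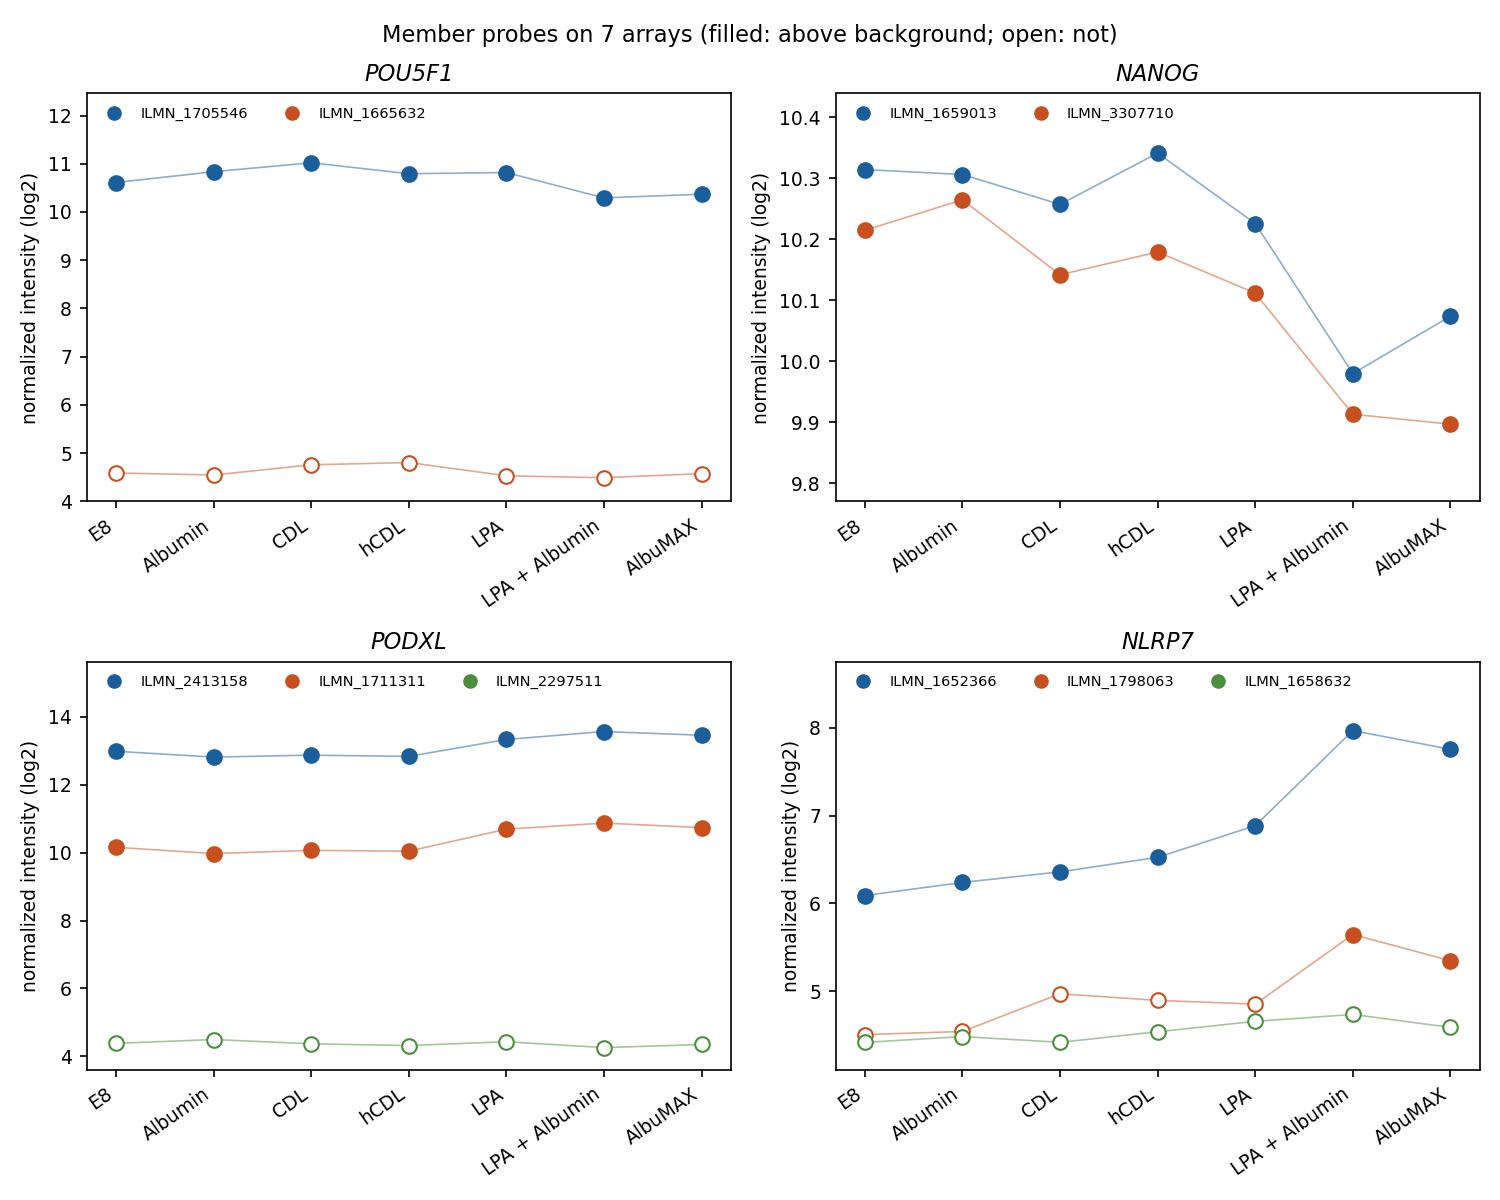
Normalized log2 intensity (y axis) of every member probe on the 7 arrays (x axis, 1 array per medium), with filled points above background and open points not. LPA, LPA + Albumin and AlbuMAX are the 3 highest arrays for both bright PODXL probes and for NLRP7 ILMN_1652366, and LPA + Albumin and AlbuMAX are the 2 lowest for POU5F1 ILMN_1705546 and both NANOG probes.

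At a difference of 1.5-fold from E8, a description with 1 array on each side, 2 of the 7 member probes were higher with LPA + Albumin, where 5.95% of all 14796 probes above background were. They were NLRP7 ILMN_1652366 and PODXL ILMN_1711311. The brighter side had to be above background and a dim side was set to the lowest signal above background, which keeps NLRP7 ILMN_1798063 out of these counts. With AlbuMAX 1 of 7 was higher (4.79% of all probes), and with LPA 1 of 7 was (3.96% of all probes), in both cases NLRP7 ILMN_1652366. With Albumin, CDL or hCDL, 0 of 7 were higher (1.00%, 1.98% and 0.926% of all probes). In every medium 0 of 7 were lower, where 1.66% of all probes were with Albumin, 1.71% with CDL, 1.30% with hCDL, 2.86% with LPA, 3.76% with AlbuMAX and 4.81% with LPA + Albumin. POU5F1 and NANOG stayed within 1.5-fold of E8 in all 6 supplemented media.

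The design allows each supplement to be tested over several arrays. LPA was present on 2 arrays, albumin on 2 and a lipid mixture (CDL or hCDL) on 2, and an additive model of the 3 was fitted with limma to the 6 arrays other than AlbuMAX. Its error is not the spread between replicate cultures. It is what the model leaves over, namely how far LPA acts differently beside albumin and how far CDL and hCDL differ. This gives each probe 2 residual degrees of freedom. The limma prior, taken from all tested probes by their intensity, adds 9.99, so it carries most of the weight in each interval and p-value.

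With LPA, PODXL and NLRP7 rose, and POU5F1 and NANOG did not pass the test. Of the 7 member probes 3 rose and 0 fell, against 4.60% and 3.23% of all probes. PODXL rose by 0.55 (SE 0.0973, 95% interval 0.34 to 0.76, limma adjusted p = 0.00521) in ILMN_2413158 and by 0.72 (SE 0.107, 0.48 to 0.95, adjusted p = 0.00178) in ILMN_1711311. NLRP7 rose by 1.26 (SE 0.222, 0.78 to 1.75, adjusted p = 0.0051) in ILMN_1652366, and its dim probe ILMN_1798063, above background on 1 of these 6 arrays, did not pass (adjusted p = 0.177).

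The LPA coefficient of POU5F1 was −0.17 (95% interval −0.49 to 0.15, limma adjusted p = 0.543). Those of NANOG were −0.21 (−0.43 to 0.01, adjusted p = 0.25) and −0.23 (−0.45 to −0.01, adjusted p = 0.207). The second NANOG interval excludes 0 before adjustment (unadjusted p = 0.045). A missed threshold does not show that these genes stayed level.

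The PODXL and NLRP7 calls rest on the pair with albumin. Without the Albumin or the LPA + Albumin array the coefficients became 0.35 and 0.53 for PODXL (adjusted p = 0.114 to 0.257) and 0.80 for NLRP7 (adjusted p = 0.237 and 0.282). All 3 calls were also lost without the intensity trend in the prior and with AlbuMAX entered as a further albumin medium.

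**Figure D2:**
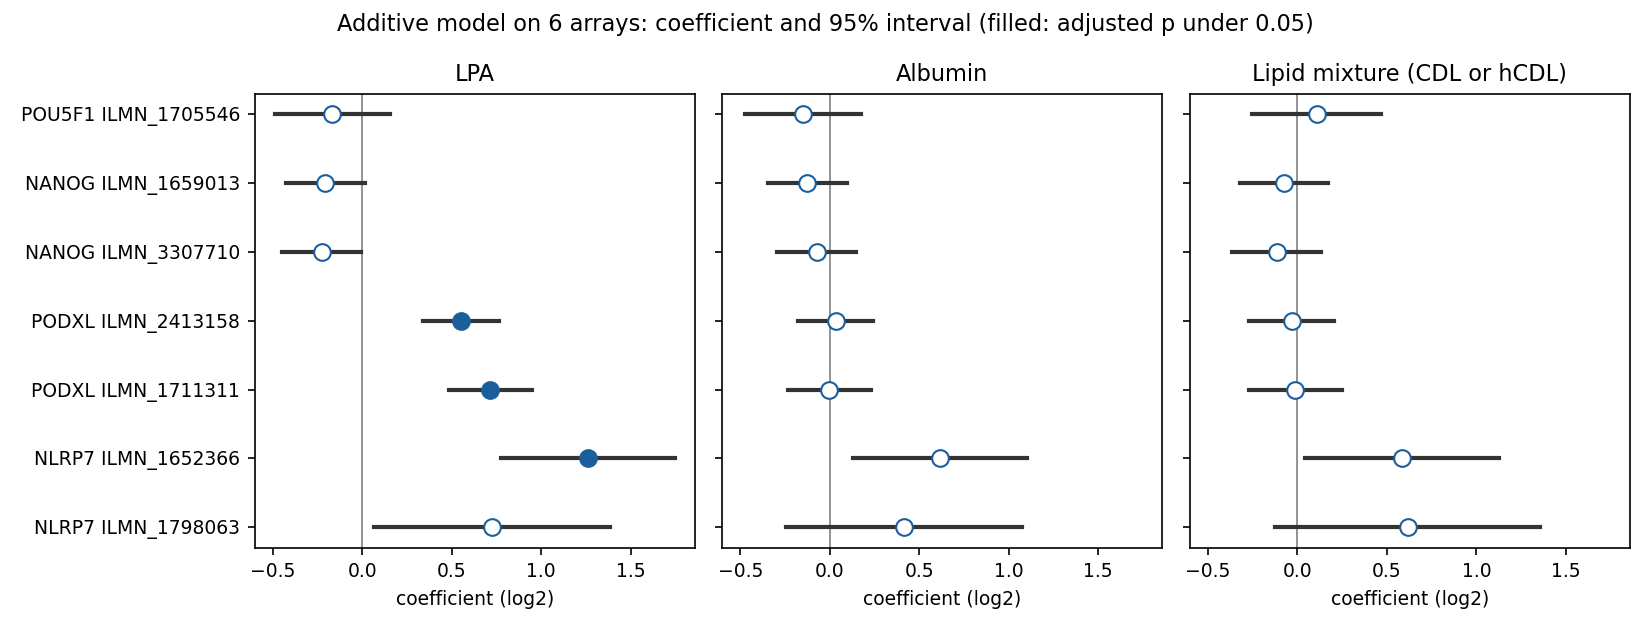
Coefficients (points, log2 scale on the x axis) and 95% intervals (lines) of the 7 tested member probes for LPA, albumin and a lipid mixture in the additive model on 6 arrays, filled where the adjusted p is under 0.05. NLRP7 ILMN_1798063 was above background on 1 of the 6 arrays, so its coefficients are not measured differences. The only filled points are both PODXL probes and NLRP7 ILMN_1652366 for LPA.

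Compared array by array, the LPA and LPA + Albumin arrays were both above E8, Albumin, CDL and hCDL in 3 of the 7 member probes and both below in 2, where 14.6% and 20.2% of all probes were. The 3 above were the PODXL probes, with gaps of 0.35 and 0.53 between the sets, and NLRP7 ILMN_1652366, with a gap of 0.36. The 2 below were the NANOG probes, each with a gap of 0.03. POU5F1 ILMN_1705546 overlapped, and NLRP7 ILMN_1798063 was below background on 5 of these 6 arrays. The AlbuMAX array lay on the LPA side of the other 4 arrays in the same 5 probes, as it did for 11.6% of all probes above and 15.3% below.

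The difference made by LPA was larger beside albumin than without it in both PODXL probes and in NLRP7 ILMN_1652366. For PODXL it was 0.35 without albumin and 0.75 with it in ILMN_2413158, and 0.53 and 0.90 in ILMN_1711311. For NLRP7 ILMN_1652366 it was 0.80 and 1.73, a difference of 0.93 between the pairs that was exceeded in size by 5.29% of all probes. For NANOG both differences were below 0, at −0.09 and −0.33 in ILMN_1659013 and −0.10 and −0.35 in ILMN_3307710. For POU5F1 the sign turned, with 0.21 without albumin and −0.54 with it, and 10.0% of all probes had a larger difference between the pairs. Opposite signs occurred in 33.8% of all probes. Each is a difference of single arrays, so none of these interactions was tested.

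**Figure D3:**
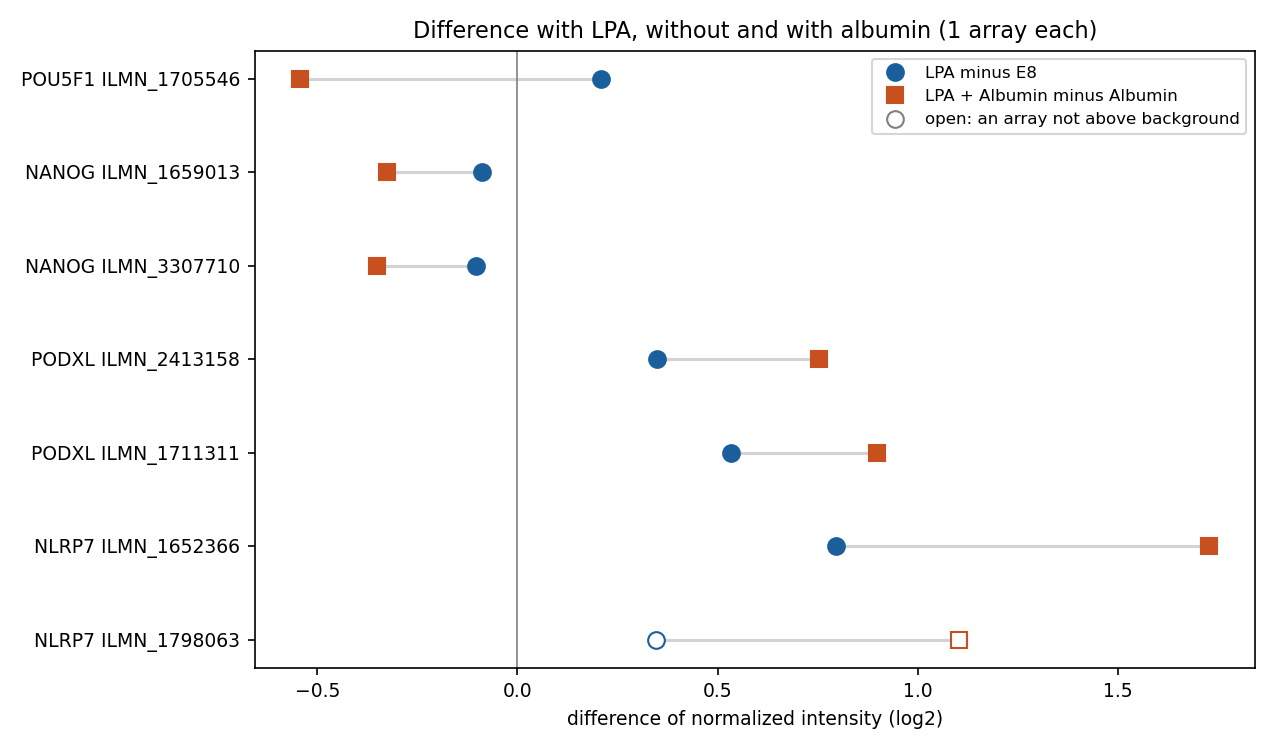
Log2 difference (x axis) of LPA from E8 (circles) and of LPA + Albumin from Albumin (squares) for the 7 tested member probes, 1 array on each side. Open symbols mark NLRP7 ILMN_1798063, where an array of each pair was not above background. Among the other 6 probes the squares lie further from 0 than the circles, and POU5F1 has the symbols on opposite sides of 0.

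Albumin, the lipid mixtures and the albumin-type media gave no call in any member. For albumin the coefficients of the 6 probes above background on all arrays ran from −0.15 (POU5F1) to 0.62 (NLRP7 ILMN_1652366, unadjusted p = 0.0169), with limma adjusted p of 0.823 to 0.999, and 0.0743% of all probes were called. For a lipid mixture they ran from −0.12 (NANOG ILMN_3307710) to 0.59 (NLRP7 ILMN_1652366), with adjusted p of 0.985 to 0.997, and 0 (0%) of 14796 probes were called by limma, of which 579 had an unadjusted p under 0.05. The fitted baseline of the lipid coefficient is not the E8 array alone. NLRP7 ILMN_1652366 itself was only 0.27 above E8 with CDL and 0.44 with hCDL. POU5F1, with a lipid coefficient of 0.11, was 0.41 and 0.18 above E8. The albumin coefficient of NLRP7 ILMN_1652366 averages differences of 0.15 without LPA and 1.08 beside it. With AlbuMAX, Albumin and LPA + Albumin set against the other 4 arrays, the coefficients were −0.31 for POU5F1, −0.16 and −0.14 for NANOG, 0.27 and 0.29 for PODXL and 0.86 for NLRP7 ILMN_1652366, with adjusted p of 0.743 to 0.768 and 0.0676% of all probes called.

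In the core pluripotency list 1 of 12 genes rose and 1 fell with LPA, all 12 being above background and POU5F1 and NANOG among them. Over all 7982 genes, with 1 probe each, 6.11% rose and 3.66% fell, so with 12 genes these counts are near that share. The median coefficient of the list was −0.03 against −0.01 over all genes. GDF3, a TGF-beta family ligand of pluripotent cells, read 9.16 in E8, 9.11 with Albumin, 9.34 with CDL, 9.05 with hCDL, 8.25 with LPA, 7.67 with LPA + Albumin and 7.84 with AlbuMAX, and fell by 1.18 (SE 0.149, limma adjusted p = 0.000548). FGF2, the growth factor that sustains human embryonic stem cells, read 9.97, 10.07, 9.81, 10.14, 10.35, 10.77 and 10.52 and rose by 0.54 (SE 0.125, adjusted p = 0.0216) in 1 of its 2 detected probes. The LPA-containing and AlbuMAX arrays lay below the other 4 for GDF3 and above them for FGF2, as they did for 15.3% and 11.6% of all probes. The median difference of the list from E8 was −0.22 with LPA + Albumin and −0.16 with AlbuMAX, where the medians of all genes were −0.03 and −0.02. SOX2, the partner of POU5F1, has no named probe in the annotation used here.

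Markers that distinguish the naive from the primed state gave 1 call. Of 11 named naive-state genes 6 were above background somewhere. With LPA 1 of them rose, NLRP7 itself, and 0 fell, where 6.11% and 3.66% of all genes did. Of the others, KLF2, KLF4 and NR5A2 were above background on all 7 arrays and had LPA coefficients of 0.45, 0.43 and −0.03 (limma adjusted p = 0.272, 0.177 and 0.916). KLF5 was above background on 2 arrays, AlbuMAX and LPA + Albumin, and KHDC3L on 1, Albumin. Of 6 primed-state genes 0 rose and 0 fell, where 6.11% and 3.66% of all genes did. With so few genes in each list these counts are descriptions. The homeobox gene OTX2 and the WNT antagonist SFRP2 had coefficients of 0.18 and −0.31 (adjusted p = 0.594 and 0.0727).

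Among surface proteins and podocalyxin partners, 2 of the 9 genes above background rose with LPA and 1 fell, where 6.11% and 3.66% of all genes did, and the median coefficient was 0.24. Besides PODXL, EZR (ezrin, the linker of podocalyxin to actin) read 12.84 in E8, 13.06 with Albumin, 12.83 with CDL, 12.93 with hCDL, 13.19 with LPA, 13.44 with LPA + Albumin and 13.48 with AlbuMAX, and rose by 0.36 (SE 0.0805, limma adjusted p = 0.0174). PODXL2 (endoglycan, a paralogue) read 7.03, 6.84, 6.75, 6.95, 6.28, 6.18 and 6.46 and fell by 0.70 (SE 0.179, adjusted p = 0.0336). The paralogues thus lay on opposite sides, with PODXL higher and PODXL2 lower in the 3 media with LPA or AlbuMAX. Such a separation from the other 4 arrays was found in 11.6% of all probes upward and 15.3% downward. CD34, the third member of that family, was not above background on any array.

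Of 18 named NLRP and maternal-complex genes, 5 were detected somewhere among the 7 arrays and 13 nowhere, NLRP5 among the latter. NLRP7 was the only one to rise with LPA and 0 fell, where 6.11% and 3.66% of all genes did, so with 5 genes the count is a description. NLRP8 was above background on all 7 arrays, with a coefficient of 0.31 (limma adjusted p = 0.444). NLRP12 was above background on 3 arrays (hCDL, LPA and LPA + Albumin). NLRP2, the closest paralogue of NLRP7, was above it on 2 (E8 and hCDL), and KHDC3L, a partner gene in recurrent mole, on 1 (Albumin), and none of these passed the test.

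Every LPA call in these lists (GDF3, FGF2, EZR, PODXL2, PODXL and NLRP7) was lost when the Albumin or the LPA + Albumin array was left out, with limma adjusted p of 0.0682 to 0.387. EZR and PODXL2 also missed the threshold without the E8 or the LPA array and with median centring.

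Among markers of differentiating and other cells, a few genes rose with LPA and, outside the fibroblast list, carried most of the rise in the sums of their lists. Summed over the 2 detected of 6 named neuroectoderm markers, normalized intensity on the linear scale was 911 to 1012 on the E8, Albumin, CDL and hCDL arrays, 2445 with LPA, 3161 with LPA + Albumin and 2364 with AlbuMAX. The intermediate filament gene NES rose by 1.60 with LPA (limma adjusted p = 1.1e-05). MAP2, the other detected gene, did not pass, and without NES the sums were 26 to 67, 92, 84 and 97. The CDL value of MAP2 was not above background. PAX6, LHX2, OTX1 and POU3F2 were not above background on any array. The 3 detected mesendoderm markers summed to 181 to 254 on the other 4 arrays, 565 with LPA, 1252 with LPA + Albumin and 811 with AlbuMAX. The bHLH factor gene TWIST1 was above background on none of the other 4 arrays. The mean of its LPA (8.66) and LPA + Albumin (10.07) values was at least 17.2-fold above theirs. Its limma call rests on values not above background on those 4 arrays, so no p-value is given. Without TWIST1 the sums were 156 to 232, 160, 181 and 151. GSC, HAND1, MSGN1 and FOXF1 were not above background.

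The 5 detected endoderm markers summed to 272 to 341 on the other 4 arrays, 668 with LPA, 738 with LPA + Albumin and 868 with AlbuMAX. AFP rose by 2.36 (limma adjusted p = 6.1e-05). CER1 was above background on 1 of the other 4 arrays. The mean of its LPA (6.48) and LPA + Albumin (7.11) values was at least 2.82-fold above theirs (adjusted p = 0.000916). Without AFP and CER1 the sums were 184 to 251, 152, 170 and 204. HHEX, above background on all 7 arrays, had a coefficient of −0.50 (adjusted p = 0.101), and the list's median was −0.04.

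The 4 detected trophectoderm markers summed to 1445 to 1665, 2502, 3060 and 2873 in the same order. BAMBI rose by 0.87 (limma adjusted p = 0.000456), and without it the sums were 125 to 157, 139, 141 and 146. The list's median coefficient was −0.15, and CDX2, GATA2, GATA3, KRT7 and CGB5 were not above background. The 4 detected fibroblast markers summed to 265 to 285, 427, 705 and 488, and without the called genes to 180 to 198, 235, 434 and 302. COL6A3 rose by 1.20 (adjusted p = 0.00305) in 1 of its 2 detected probes. LOX was above background on 0 of the other 4 arrays. The mean of its LPA (5.44) and LPA + Albumin (7.03) values was at least 1.97-fold above theirs. Its limma call likewise rests on values not above background there, so no p-value is given. DCN, LUM and FBN1 were not above background.

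Of the detected genes in the neuroectoderm, mesendoderm, endoderm, trophectoderm and fibroblast lists, 1 of 2, 1 of 3, 2 of 5, 1 of 4 and 2 of 4 rose and 0 fell, where 6.11% and 3.66% of all genes did. TWIST1 and LOX were above background only with LPA, LPA + Albumin and AlbuMAX, so these arrays alone brought them into the counts. Their calls, here and with an array left out, are therefore no support for a rise. The lists were also chosen with earlier results of these data known, so the counts are descriptions. Without the Albumin or the LPA + Albumin array CER1, BAMBI, COL6A3 and LOX missed the threshold (limma adjusted p = 0.0666 to 0.327), while NES, TWIST1 and AFP passed. COL6A3 also missed the threshold without the E8 or the LPA array (coefficient 1.05 in each case). The core list summed to 36667 to 37290 on the other 4 arrays, 35751 with LPA, 32021 with LPA + Albumin and 32886 with AlbuMAX. Without GDF3 and FGF2 the sums were 35036 to 35700, 34143, 30067 and 31191, and none of those 10 genes passed for LPA. The brightest genes weigh most in such sums, here LIN28A and L1TD1 (limma adjusted p = 0.596 and 0.630 for LPA). The part of such cells in the differences of POU5F1, NANOG, PODXL and NLRP7 was not tested, and in cultures measured whole, fewer cells of a type and less RNA per cell cannot be told apart.

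Over the 7 arrays NLRP7 ran with PODXL and against NANOG. NLRP7 ILMN_1652366 correlated with the NANOG probes at r = −0.953 and −0.967 and with the PODXL probes at 0.916 and 0.903, and POU5F1 correlated with NANOG at 0.795 and 0.776. The 7 points share the normalization and are single arrays, so these values are descriptions.

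Genes whose level over the 7 arrays was most like that of a member were found among 1989 genes above background on all arrays with a range of at least 1.5-fold. For POU5F1 they were SCAMP5 (r = 0.987), FNIP2 (0.965) and SEMA3A (0.965). For PODXL they were ADM (0.997), ARHGAP1 (0.996) and PRAG1 (0.994), and for NLRP7 CLTB (0.986), S100A6 (0.983) and NEXN (0.981). A correlation above 0.9 was common for PODXL (369 genes) and NLRP7 (268 genes) and less so for POU5F1 (33 genes). NANOG ranged over less than 1.5-fold and was not compared.

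**Figure D4:**
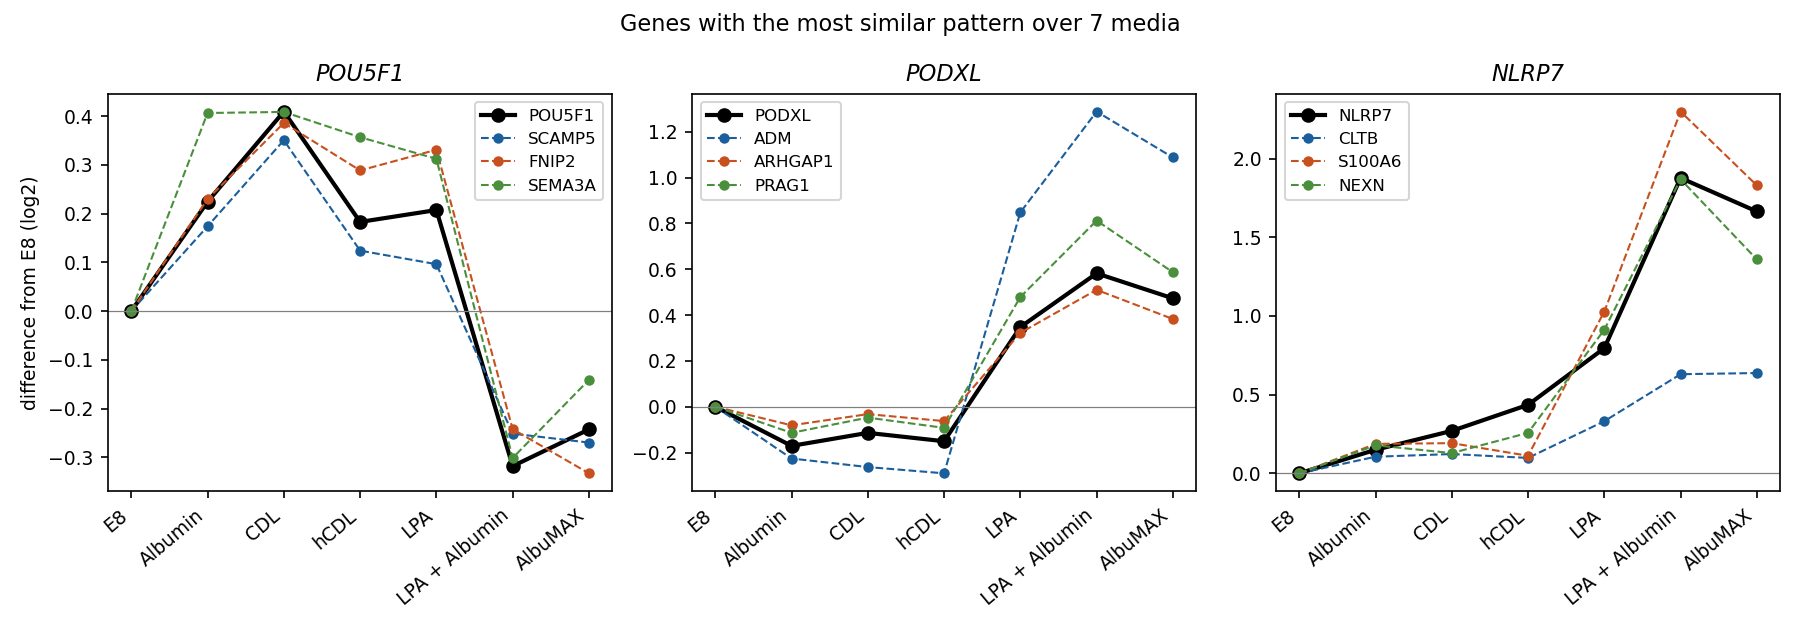
Log2 difference from E8 (y axis) on the 7 arrays (x axis) for POU5F1, PODXL and NLRP7 (black) and for the 3 genes with the highest Pearson r to each (coloured, dashed). The POU5F1 group is lowest with LPA + Albumin and AlbuMAX, and the PODXL and NLRP7 groups are highest with LPA, LPA + Albumin and AlbuMAX.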

How the data were processed

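Samples were grouped by medium, as labelled. Per the file headers, the deposited table gives each probe an intensity and a detection p-value on each array, with p-values in steps of 1 in 770. The authors' processed intensity values, a second deposited table, served as an alternative. No source used here names the software. Platform annotation named the probes (19221 with 1 symbol, 3 with several, 14642 unnamed here).

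The neqc function of limma 3.58.1 (R 4.3.3) applied normexp (offset 16, negative controls derived from detection p-values), quantile normalization and log2. Tests used limma over the 14796 probes detected on 1 array or more, with an intensity trend and Benjamini-Hochberg adjustment, called at 0.05. In lists, the probe with the highest mean stood for its gene. Members and lists were chosen with earlier results of these data known. List genes were named where called for LPA, at most 4 per direction, or else the 2 of widest range; others are examples. The standard deviation of a difference is limma's for 2 arrays, after the residual one is drawn towards that of probes of similar intensity. It comes from the fit to the 6 arrays other than AlbuMAX. A fold against a dim side uses the lowest signal above background there and is a lower bound. For TWIST1, CER1 and LOX it sets the mean of the LPA and LPA + Albumin arrays against the mean of the other 4. The 7 arrays limit the precision. The steps were tested on simulated data with 200 of 14796 probes changed. For LPA, 84% were recovered at a log2 change of 1 and 100% at a change of 2, with 24 false calls each time. This is a larger share of the calls than the 0.05 threshold aims at, so calls may hold more false ones than it implies.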

Additional observations from a re-analysis of the deposited data

Results flagged for a closer look

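The difference made by LPA in POU5F1 (ILMN_1705546) had opposite signs without and with albumin: 0.21 for LPA over E8 and −0.54 for LPA + Albumin over Albumin, so that the second was lower than the first by a log2 value of −0.75. It rests on 1 array of each medium, and the difference was not tested. Opposite signs were found in 33.8% of all 14796 probes.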

How the results depend on the processing

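No paired analysis was possible because each medium has 1 array. LPA called 1158 probes (680 higher, 478 lower), 0 without the intensity trend (2763 at an unadjusted p under 0.05) and 0 with AlbuMAX added (1636 at that p), and 104 to 1508 without 1 array, fewest without LPA + Albumin or Albumin (124). Median centring gave 662 higher and 288 lower, and cyclic loess 743 and 305. Albumin called 11 probes, 0 without the trend and 6 to 26 without 1 array. Lipid mixtures called 0 to 73 without 1 array, and the albumin-type contrast 6 without the trend and 5 to 285 without 1 array (285 without Albumin, where NLRP7 passed at 1.40, limma adjusted p = 0.031). The LPA coefficients of PODXL were 0.55 and 0.72 (adjusted p = 0.181 and 0.126) without the trend and 0.40 and 0.52 (0.429 and 0.418) with AlbuMAX added, and of NLRP7 1.26 (0.121) and 0.90 (0.43). Without 1 array they were 0.35 to 0.75 and 0.53 to 0.90 for PODXL, 0.80 to 1.73 for NLRP7 and −0.54 to 0.21 for POU5F1. NLRP7 stood at 0.72 without background correction. The albumin coefficients without 1 array were −0.53 to 0.22 for POU5F1, −0.20 to 0.050 for NANOG ILMN_3307710, −0.17 to 0.23 for PODXL ILMN_2413158 and −0.18 to 0.18 for ILMN_1711311, and the lipid coefficients −0.45 to 0.30 for POU5F1, −0.13 to 0.27 and −0.10 to 0.26 for PODXL. Signs also turned for albumin in NANOG ILMN_3307710 (0.0211, median centring) and PODXL ILMN_1711311 (0.000401 without background correction, 0.0998 with median centring, 0.0108 with cyclic loess, 0.19 with AlbuMAX added), and for lipid mixtures with median centring in NANOG ILMN_1659013 (0.0188), PODXL ILMN_2413158 (0.0200) and ILMN_1711311 (0.0738; 0.00278 with cyclic loess). None of these had passed the test, and the cause was not tested. Correlations of the pattern-like genes stayed between 0.956 and 0.997 under 5 other scalings. All 13 list genes called for LPA missed the threshold without the trend and with AlbuMAX added.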
